A study of Mus musculus with 10 samples.

Results

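Adipocyte-primed stromal genes are genes of the fat cell programme that marrow stroma already uses before it makes fat cells. Members were the rows of the normalized count table with the symbol Adipoq, Lepr, Lpl, Pparg, Apoe, Fabp4 or Cd36. All 7 were found among the 15078 genes of the table, and all 7 had a mean of at least 10 normalized counts over the 10 libraries and were tested with 13644 genes in all. In all 7 marrow libraries 6 of them read at least 226 normalized counts, whereas Cd36 had 1 read in 2 of these libraries.

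The RNA came from CD51+CD200+ cells, sorted outside the CD45, Ter119 and CD31 gates. BM-MSCs (n = 3) are mesenchymal stem cells from the marrow, and P-SSCs (n = 3) are skeletal stem cells from the periosteum, the sheath of the bone surface, both of wild-type mice labelled as untreated hosts at steady state. The methods give an age of 6 to 12 weeks for the mice of the study, and do not say whether these hosts carried a graft. Graft BM-MSCs (n = 4) were cells of the same gate from the marrow of femurs of Postn Cre-ER;tdTomato mice (labelled transgenic, POSTN-CRE), 5 months after the femurs were placed under the skin of wild-type recipients, and were also positive for Tomato. Recipients had received 1 mg tamoxifen 2 times daily for 10 days from day 2 after transplantation, which makes cells that use Postn, and their descendants, Tomato positive. Postn is used by osteoblasts and fibroblasts as well as by periosteal cells, so Tomato does not mark the periosteum alone. BM-MSC 2+4 and P-SSC 2+5 each combined RNA of 2 mice, while the graft was also 5 months older than at surgery. The transgene, tamoxifen, transplantation and age cannot be told apart in the graft comparisons.

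A network of stromal cells in adult marrow makes adiponectin and carries the leptin receptor. These cells feed blood stem cells with Cxcl12 and Kitl, and they are a source of marrow fat cells. PPAR gamma is the master switch of the fat cell fate, and the lipid genes Lpl, Fabp4 and Cd36 are among its known targets. In a fat cell, lipoprotein lipase releases fatty acids from lipoproteins, CD36 takes them up and FABP4 carries them inside the cell. Apolipoprotein E is the ligand by which lipoprotein particles are taken up.

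Libraries held 15415421 to 25223295 reads, and a floor of 3 reads was equal to 0.119 to 0.195 ppm of a library. Libraries stood apart in 2 ways. First, genes rich in G and C were high in the 4 graft libraries and P-SSC 4 and low in the other 5, so in graft BM-MSCs against BM-MSCs this class of library and the group cannot be told apart. Second, zeros fell on expressed genes in the graft. Of the 6740 genes with at least 100 normalized counts in graft BM-MSC 1, 3 and 4, 9.11% had at most 1 read in graft BM-MSC 2, against at most 2.90% in another graft library and 0.467% in a steady-state library. Cd200 and Itgav (CD51), the genes of the markers sorted for, were read in all 10 libraries. This does not show how pure the sort was, and markers of other cell types are given below.

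The members lie on different chromosomes. On GRCm38 (GENCODE M21) they are the protein-coding genes Adipoq (ENSMUSG00000022878, chr16:23146536-23158028, plus strand), Lepr (ENSMUSG00000057722, chr4:101717404-101815352, plus strand), Lpl (ENSMUSG00000015568, chr8:68880491-68907448, plus strand), Pparg (ENSMUSG00000000440, chr6:115360951-115490399, plus strand), Apoe (ENSMUSG00000002985, chr7:19696109-19699188, minus strand), Fabp4 (ENSMUSG00000062515, chr3:10204088-10208576, minus strand) and Cd36 (ENSMUSG00000002944, chr5:17781690-17888801, minus strand). Their mRNAs, taken as the longest protein-coding transcript, ranged from 38.4% GC in Cd36 to 59.5% in Apoe, where the median of tested genes was 50.1%. Apoe was thus the member richest in G and C, with a GC content above 94.2% of genes, while that of Cd36, Fabp4 and Lepr was above only 2.00%, 5.58% and 9.31%.

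Promoter windows of RefSeq (GRCm38.p6, 250 bases before to 50 after a transcript start) matched 5 of the 7 members, in 10 windows. Of these, 4 are shown: that of Adipoq, which differed most between the groups, those of 2 starts of Pparg, its upstream start and the downstream start that differ most in their CG content, and that of Cd36, the member that did not follow the others. Capitals mark matches, on either strand, to TTGCNNAA, the core bound by C/EBP factors, to AGGTCA, the part that the PPAR and RXR direct repeat holds in tandem, or to TATAAA, the TATA box.
Adipoq, chr16:23146286-23146585, plus strand: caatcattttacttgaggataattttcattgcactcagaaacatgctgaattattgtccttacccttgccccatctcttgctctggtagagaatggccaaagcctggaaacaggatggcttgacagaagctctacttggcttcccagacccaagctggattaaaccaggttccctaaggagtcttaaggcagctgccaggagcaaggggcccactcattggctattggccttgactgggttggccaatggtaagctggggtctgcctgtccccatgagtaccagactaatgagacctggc
Pparg upstream start, chr6:115360894-115361193, plus strand: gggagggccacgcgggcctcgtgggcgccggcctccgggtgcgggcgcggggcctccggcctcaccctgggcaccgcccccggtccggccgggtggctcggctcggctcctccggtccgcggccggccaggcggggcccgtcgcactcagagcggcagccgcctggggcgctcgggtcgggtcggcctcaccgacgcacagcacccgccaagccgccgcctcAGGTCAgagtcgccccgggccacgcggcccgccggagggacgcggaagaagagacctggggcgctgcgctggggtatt
Pparg downstream start, chr6:115421816-115422115, plus strand: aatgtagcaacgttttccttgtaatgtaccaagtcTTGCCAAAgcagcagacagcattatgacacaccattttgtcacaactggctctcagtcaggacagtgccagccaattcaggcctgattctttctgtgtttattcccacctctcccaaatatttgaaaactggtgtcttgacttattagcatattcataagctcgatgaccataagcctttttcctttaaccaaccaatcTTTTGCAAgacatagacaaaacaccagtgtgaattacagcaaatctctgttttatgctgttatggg
Cd36, chr5:17835847-17836146, minus strand: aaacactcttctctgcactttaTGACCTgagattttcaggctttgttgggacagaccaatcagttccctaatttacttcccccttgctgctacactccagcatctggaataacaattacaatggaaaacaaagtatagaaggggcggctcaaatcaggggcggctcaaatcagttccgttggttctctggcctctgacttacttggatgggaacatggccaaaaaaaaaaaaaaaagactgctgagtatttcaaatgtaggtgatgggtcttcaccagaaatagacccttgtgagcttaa
The windows differed most in CG dinucleotides. The Adipoq window had 0 and the upstream Pparg window 44, which is more than in 97.8% of all 32851 windows, whose median was 7, and the downstream Pparg window had 2. The downstream Pparg window held 2 C/EBP matches, TTGCCAAA and, on the minus strand, TTTTGCAA, which lie 215 to 208 and 16 to 9 bases before the start. A second Lepr window held 1 such match, and 10.8% of all windows hold at least 1. AGGTCA was found in the upstream Pparg window, in a further Pparg window and in that of Cd36, against 16.3% of all windows. The whole direct repeat AGGTCANAGGTCA was in none of the members' windows and in 0.0396% of all windows, and the early B-cell factor motif TCCCNNGGGA in none and in 0.904%. TATAAA was in 1 further window each of Pparg and Apoe, against 13.6% of all.

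**Figure D1:**
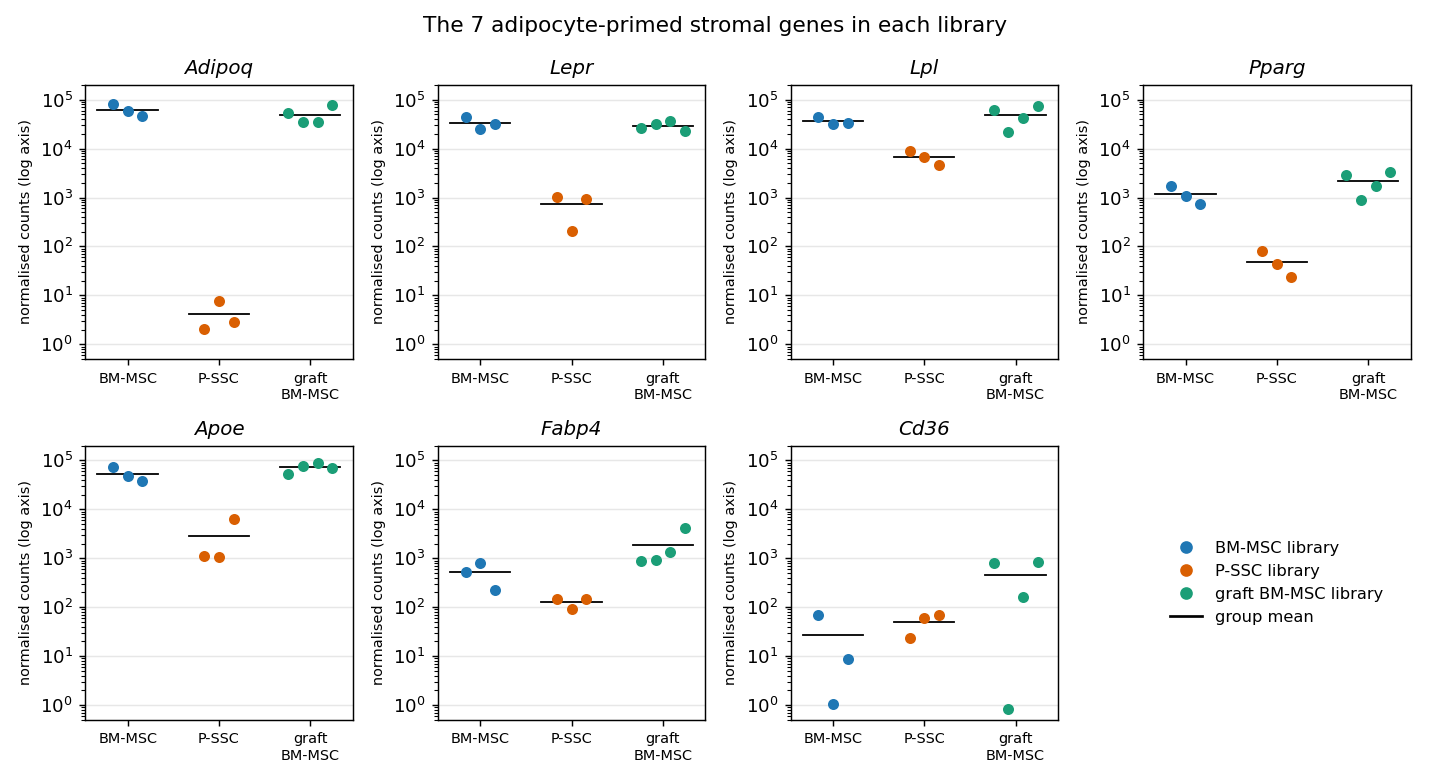
Normalized counts (log axis) of each member in every library of BM-MSCs (n = 3), P-SSCs (n = 3) and graft BM-MSCs (n = 4), with 1 point per library and a line at the group mean. In 6 panels all P-SSC points lie under all graft BM-MSC points, and in the Cd36 panel the graft points run from 0.843 to 825.

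The first question was how marrow stroma that descends from the graft differs from periosteal cells at steady state. Of the 7 members, 6 were higher in graft BM-MSCs than in P-SSCs, all but Cd36, by limma's test on log2(normalized count + 1) with an adjusted p under 0.05. Of all genes tested, 6.08% were called higher and 1634 were called lower in this comparison. The 6 members also did not overlap between the groups, as did 8.06% of all genes in that direction. The median log2 difference was 5.16 over the members and -0.47 over all genes.

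Adiponectin, the hormone encoded by Adipoq, gave the widest gap. Adipoq read 83452, 57828 and 47085 normalized counts in BM-MSC 1, 2+4 and 3, and 53102, 34596, 34855 and 76228 in graft BM-MSC 1 to 4. In P-SSC 1, 2+5 and 4 it read 2.08, 7.64 and 2.91, which came from 2, 6 and 3 reads. P-SSCs were therefore at or near the floor, and both marrow groups overlapped far above it. The graft mean was 11805 times the P-SSC mean, with a 95% interval of 6598 to 23649 that covers only the counting error of the 11 P-SSC reads. Adipoq differed between graft BM-MSCs and P-SSCs by 13.29 on the log2 scale (SE 0.41, adjusted p 5.76e-08) and between P-SSCs and BM-MSCs by -13.66 (SE 0.44, adjusted p 8.72e-08). Fewer cells that make a transcript and less transcript per cell cannot be told apart in such bulk libraries, here and below.

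Lepr, the receptor of the fat cell hormone leptin, marks the same stromal network. It read 45208, 24593 and 31792 normalized counts in BM-MSCs, 1034, 210 and 921 in P-SSCs, and 26389, 31398, 37374 and 22640.4 in graft BM-MSCs. Both marrow groups overlapped, and all 7 marrow libraries lay above the 3 P-SSC libraries, of which P-SSC 2+5 was the lowest. The log2 difference was 5.63 for graft BM-MSCs minus P-SSCs (SE 0.49, adjusted p 4.72e-05) and -5.81 for P-SSCs minus BM-MSCs (SE 0.52, adjusted p 8.03e-05). Leprot, a separate gene that ends 58.0 kb before Lepr, stayed between 2026 and 4149 in all 10 libraries, and its groups overlapped in each comparison.

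Pparg encodes the fat cell regulator itself. Normalized counts of Pparg were 1711, 1094 and 724 in BM-MSCs, 80.0, 43.3 and 24.2 in P-SSCs, and 2865, 889.7, 1741 and 3268 in graft BM-MSCs. Graft BM-MSC 2 was the lowest of its group and still 11.1 times the highest P-SSC library. Pparg was 5.44 higher on the log2 scale in graft BM-MSCs than in P-SSCs (SE 0.58, adjusted p 0.00014) and 4.62 lower in P-SSCs than in BM-MSCs (SE 0.62, adjusted p 0.000724).

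Lpl, which encodes lipoprotein lipase, fell least among the 5 members that limma called lower in P-SSCs than in BM-MSCs. It read 44781, 31346 and 33965.5 in BM-MSCs, 8984, 6692 and 4719 in P-SSCs, and 60477, 21566, 41743.5 and 72577 in graft BM-MSCs. The groups did not overlap with P-SSCs, and P-SSCs kept at least 4719. The log2 difference of Lpl was 2.76 against P-SSCs (SE 0.38, adjusted p 0.000665), and P-SSCs minus BM-MSCs gave -2.46 (SE 0.41, adjusted p 0.0028).

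Apoe encodes apolipoprotein E, which binds lipoprotein receptors. It read 74739.5, 49056 and 37838 in BM-MSCs, 1119.7, 1084 and 6417 in P-SSCs, and 53586, 77386, 86911 and 70484 in graft BM-MSCs. P-SSC 4, the P-SSC library of the class with high GC-rich genes, read 5.73 times the higher of the other P-SSC libraries. Apoe was 5.16 higher on the log2 scale in graft BM-MSCs than in P-SSCs (SE 0.55, adjusted p 0.00014) and 6.01 higher without P-SSC 4. In P-SSCs minus BM-MSCs it was -4.71 (SE 0.58, adjusted p 0.000513), and -5.55 without P-SSC 4.

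Fabp4, the fatty acid carrier of fat cells, was low in both steady-state groups. It read 514, 803 and 226 in BM-MSCs, 146, 90.4 and 146 in P-SSCs, and 893, 934, 1365 and 4246 in graft BM-MSCs. No graft library overlapped with either steady-state group, and graft BM-MSC 4 stood above the other 3. The log2 difference to P-SSCs was 3.56 (SE 0.63, adjusted p 0.00284), and 3.06 without graft BM-MSC 4 (adjusted p 0.00465). With the GC class of the library as a covariate, whose effect rests on P-SSC 4 against P-SSC 1 and 2+5 here and below, it was 3.33 with an adjusted p of 0.0791. P-SSCs minus BM-MSCs gave -1.85 (SE 0.67, adjusted p 0.137), and DESeq2 on the recovered reads -1.996 (adjusted p 0.0424). Fabp5, the close relative of Fabp4 in skin and fat, read 400.0, 385 and 348 in BM-MSCs, 81.0, 157 and 54.3 in P-SSCs and 1649, 218, 437 and 2601 in graft BM-MSCs, and it was higher in graft BM-MSCs than in P-SSCs (log2 difference 3.16, adjusted p 0.0224), a call lost without P-SSC 1, P-SSC 4 or graft BM-MSC 1 (adjusted p up to 0.0789).

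Cd36, the fatty acid uptake receptor, did not follow the others. Cd36 read 70.0, 1.05 and 8.88 in BM-MSCs, 23.9, 61.1 and 67.9 in P-SSCs, and 809.6, 0.843, 164 and 825 in graft BM-MSCs. The value of BM-MSC 2+4 and that of graft BM-MSC 2 came from 1 read each, while the other graft libraries lay above every steady-state library. All groups overlapped, the steady-state groups with each other and the graft with both through graft BM-MSC 2, the library with many zeros on expressed genes. The log2 difference of Cd36 was 1.33 to P-SSCs (SE 2.13, 95% interval -3.38 to 6.05, adjusted p 0.693), an interval wide enough for a large difference in either direction. Without graft BM-MSC 2 it was 3.34 (adjusted p 0.124).

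**Figure D2:**
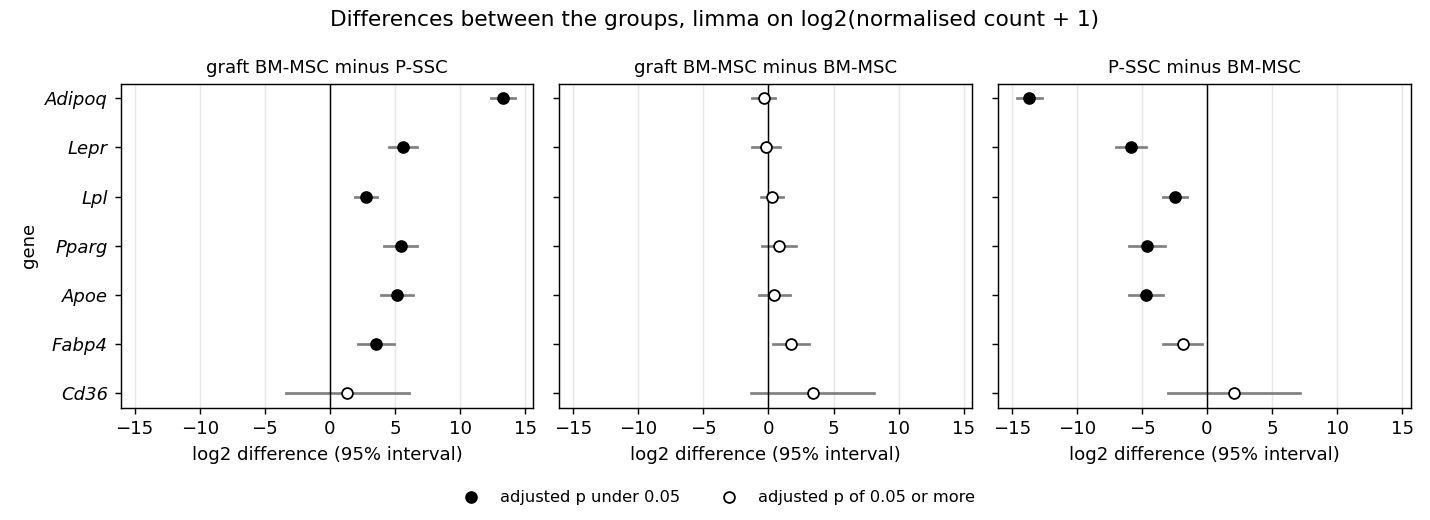
Log2 differences of the members (points) with 95% intervals (lines) in the 3 comparisons, from 1 limma fit over 10 libraries on log2(normalized count + 1); filled points have an adjusted p under 0.05. Filled points are 6 in graft BM-MSC minus P-SSC, 0 in graft BM-MSC minus BM-MSC and 5 in P-SSC minus BM-MSC.

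The 2 steady-state groups were compared next. Of the members, 5 were lower in P-SSCs than in BM-MSCs (Adipoq, Lepr, Lpl, Pparg and Apoe), and none was higher. Over all genes 4.58% were called lower and 4.57% higher. In 6 members, Fabp4 added, the groups did not overlap, as did 15.8% of all genes in that direction. The members' median log2 difference was -4.62 and that of all genes 0.00. The same 5 members were called within the low GC class alone (BM-MSCs against P-SSC 1 and 2+5). In the high GC class P-SSC 4 is the only steady-state library, and all 4 graft libraries exceeded it in each member other than Cd36. These 2 comparisons share the P-SSC libraries, so a low P-SSC value enters both.

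Whether graft BM-MSCs differed from steady-state BM-MSCs was the last question. None of the 7 members passed limma's test, while 2.61% of all genes were called higher and 5.06% lower. At an unadjusted p under 0.05 the count was 1, Fabp4. edgeR on the recovered reads called 0 of the 7 and DESeq2 called 2, Fabp4 and Cd36. The log2 differences, graft BM-MSCs minus BM-MSCs, were -0.38 for Adipoq (95% interval -1.28 to 0.53), -0.18 for Lepr (-1.27 to 0.90), 0.30 for Lpl (-0.55 to 1.149), 0.82 for Pparg (-0.46 to 2.10) and 0.46 for Apoe (-0.76 to 1.67). These intervals reach as low as -1.28 and as high as 2.10, so equal levels were not shown. The median of all genes was -0.53, which puts Adipoq and Lepr above the median gene, and quantile normalization turned Adipoq to 0.05 and Lepr to 0.22. With the GC class as a covariate Apoe turned to -2.09 (adjusted p 0.132).

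Among the members, Fabp4 and Cd36 had the largest differences in graft BM-MSCs minus BM-MSCs. Fabp4 was 1.71 higher (SE 0.63, 95% interval 0.31 to 3.10, adjusted p 0.125), and its groups did not overlap, as did those of 10.3% of all genes in that direction. After a correction for GC content the difference was 2.15 (adjusted p 0.0437), and without graft BM-MSC 4 it was 1.201 (adjusted p 0.198). Cd36 was 3.40 higher (SE 2.13, 95% interval -1.31 to 8.12, adjusted p 0.343). Without graft BM-MSC 2 it was 5.41 higher with an adjusted p of 0.047, so that 1 library decided that call.

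**Figure D3:**
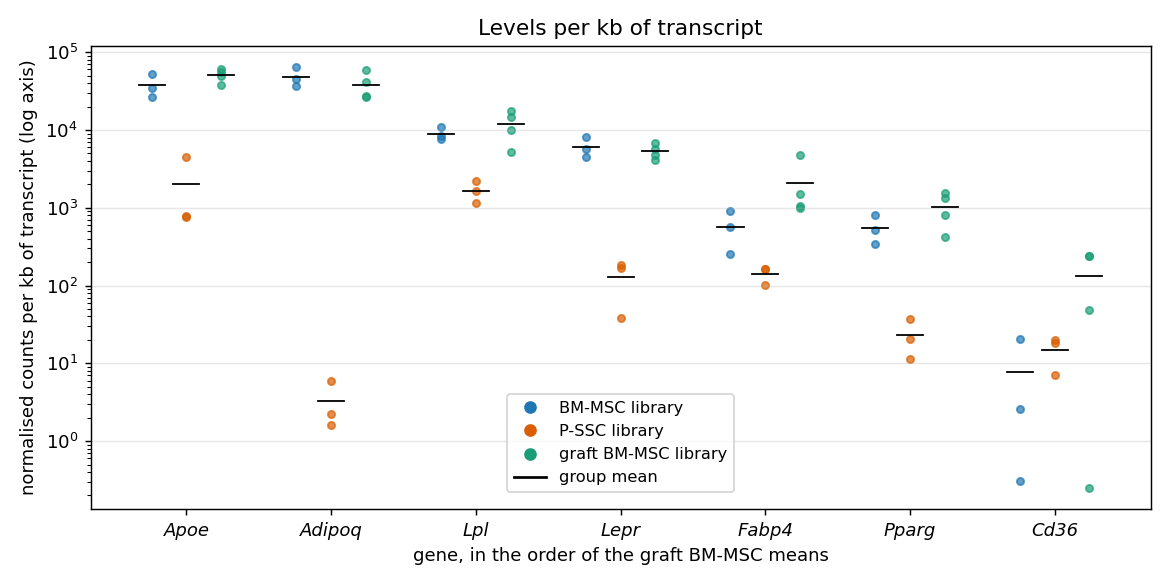
Normalized counts per kb of the longest protein-coding transcript (log axis) of the 7 members in each library, with the group mean as a line; genes are in the order of the graft BM-MSC means. Apoe and Adipoq are at the top in both marrow groups, and Adipoq is the lowest in P-SSCs.

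Per kb of transcript the order of the members differed between marrow and periosteum. The mean level per kb in BM-MSCs was 48598 for Adipoq, 38265 for Apoe, 8918 for Lpl, 6111 for Lepr, 574 for Fabp4, 553 for Pparg and 7.84 for Cd36. Adipoq with Apoe, Lpl with Lepr, and Fabp4 with Pparg overlapped between libraries, and the other neighbours in that order did not. In graft BM-MSCs it was 51202 for Apoe, 38464 for Adipoq, 11929.7 for Lpl, 5314 for Lepr, 2075 for Fabp4, 1031 for Pparg and 132 for Cd36. Here the levels per kb of Adipoq and Lpl, and of Pparg and Cd36, did not overlap, and the other neighbours did. In P-SSCs the order of the means was Apoe (2041 per kb), Lpl (1652), Fabp4 (143), Lepr (130.2), Pparg (23.1), Cd36 (15.0) and Adipoq (3.26). Apoe with Lpl, Fabp4 with Lepr, and Pparg with Cd36 overlapped between P-SSC libraries, and the other neighbours did not. Apoe lay above Lpl in only 1 of the 3 P-SSC libraries, P-SSC 4, and Fabp4 above Lepr in only 1 of 3. Adipoq thus moved from the top of the 7 to the bottom, and it lay below Cd36 in all 3 P-SSC libraries. These levels assume 1 transcript per gene. Divided by the length of all annotated exons, the level of Fabp4 in graft BM-MSCs was 414 and fell below the 742 of Pparg.

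**Figure D4:**
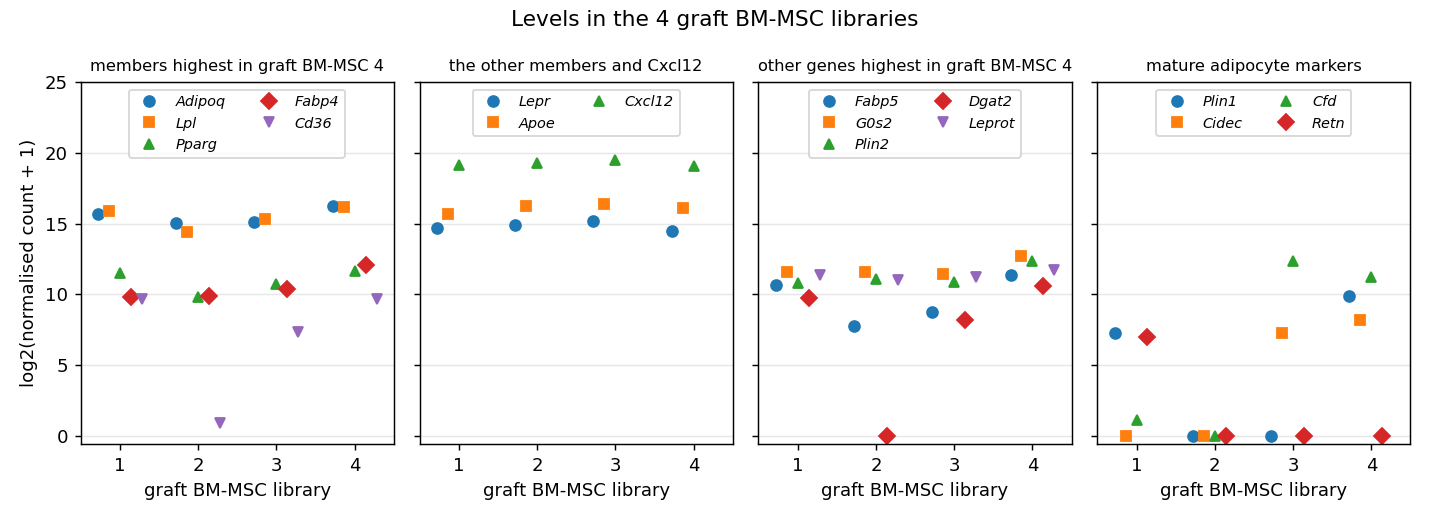
log2(normalized count + 1) in the 4 graft BM-MSC libraries for members highest in graft BM-MSC 4, for the other members with Cxcl12, for 5 other genes chosen as highest in graft BM-MSC 4 and for mature adipocyte markers. Each point is 1 library, and points at 0 are genes listed at 0.

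Within the graft group the members did not vary together. The coefficient of variation over the 4 libraries was 19.5% for Apoe, 21.7% for Lepr, 39.6% for Adipoq, 45.4% for Lpl, 49.4% for Pparg, 86.3% for Fabp4 and 95.5% for Cd36. Adipoq, Lpl, Pparg and Cd36 had the same order, highest in graft BM-MSC 4, then 1, then 3, and lowest in 2. Adipoq was nearly equal in graft BM-MSC 3 (34855) and graft BM-MSC 2 (34596), so the end of its order rests on a small gap. Fabp4 was also highest in graft BM-MSC 4. Lepr was instead highest in graft BM-MSC 3 (37374) and lowest in graft BM-MSC 4 (22640.4), an order it shared with Cxcl12, the stromal chemokine. The share of all genes with the order of Lepr was not counted. Fabp5 and Leprot shared the order of Adipoq, as did 5.61% of the 12693 genes tested with reads in the graft. Of 46 other genes on the lists of lipid uptake, droplets and fatty acids, 26 were highest in graft BM-MSC 4, against 26.7% of all genes, and 10 had the order of Adipoq, while Fasn was highest in graft BM-MSC 3. The next 3 genes were chosen after their values were seen. G0s2, an inhibitor of fat breakdown, read 3024, 3047, 2809.7 and 6628 in graft BM-MSC 1 to 4. Plin2, a coat protein of lipid droplets, read 1812, 2165, 1846 and 5208. Dgat2, which makes triglyceride, read 864, 0, 294 and 1522. These orders are a description of 4 libraries, of which graft BM-MSC 2 had the most zeros on expressed genes.

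Markers of mature fat cells moved with this order in part. Plin1, the main coat protein of the fat cell droplet, was at 0 in all 6 steady-state libraries and read 151, 0, 0 and 924 in graft BM-MSC 1 to 4. Cidec, which fuses droplets, was at 0 in the steady-state libraries too and read 0, 0, 155 and 291 in the graft. Cfd, the fat cell protein adipsin, was at most 58.2 in a steady-state library and read 1.13, 0, 5366 and 2370.0 in the graft. A count of 0 allows up to 3 reads, counting error only. Plin1, Cidec and Cfd did not pass the test in a comparison (adjusted p of at least 0.199 against P-SSCs). Adrb3, the adrenergic receptor of fat cells, passed it with the members. It was at 0 in all 3 P-SSC libraries, read 172, 212 and 161 in BM-MSCs and 214, 772, 730.1 and 150.2 in graft BM-MSC 1 to 4, and was higher in the graft than in P-SSCs (adjusted p 0.000246) and lower in P-SSCs than in BM-MSCs (adjusted p 0.00106). Car3, a carbonic anhydrase of fat and muscle, was 3.29 lower in P-SSCs than in BM-MSCs (adjusted p 0.012). The whole list of 8, of which 7 were in the table, summed to 8144 to 14548 in BM-MSCs, 648 to 2169 in P-SSCs and 2064 to 13903 in graft BM-MSCs. The sums came mostly from Car3, except in graft BM-MSC 3, where Cfd made up 5366 of 9420. The part of such cells in the values of the members was not tested. Adipoq read at least 34596 in the marrow libraries with Plin1 and Cidec at 0. The lowest of these was graft BM-MSC 2, the library with the most zeros on expressed genes.

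Fabp4 and Cd36 are also used by endothelium, and Cd36, Apoe and Lpl by macrophages. Endothelial markers (10 listed, 6 analysed here) summed to 0, 0, 0 and 148 in graft BM-MSC 1 to 4, with Cdh5 and Emcn at 0 in all 4, to 217 to 353 in BM-MSCs and to 3275 to 6871 in P-SSCs, nearly all from Tek. Pecam1, Kdr, Cldn5 and Gpihbp1 were not analysed here, and the part of endothelial cells in Fabp4 and Cd36 was not tested. Macrophage markers (9 of 10 analysed) summed to 1656, 2436, 14544 and 1907 in graft BM-MSC 1 to 4, mostly from Lyz2, against 4882 to 17401 in BM-MSCs and 741 to 2955 in P-SSCs. Adgre1 was at 0 in the graft, while Ptprc read up to 196 and C1qa up to 76.5 in a graft library. The part of macrophages in Cd36, Apoe and Lpl was not tested. Graft BM-MSC 3, the library with the most Lyz2, had the highest Apoe and the second lowest Cd36 of the group. Red cell markers (6 of 6) summed to 1401 to 25935 in the graft, 52153 to 189343 in BM-MSCs and 182 to 1203 in P-SSCs, so they moved with the members between marrow and periosteum, and their part was not tested. Platelet markers (4 of 4) summed to 74.2 to 612 in the graft, 271 to 1916 in BM-MSCs and 204 to 664 in P-SSCs, and muscle markers (4 of 5) to 1.69 to 155, 0 to 47.5 and 278 to 1360.5 in the same order of groups.

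**Figure D5:**
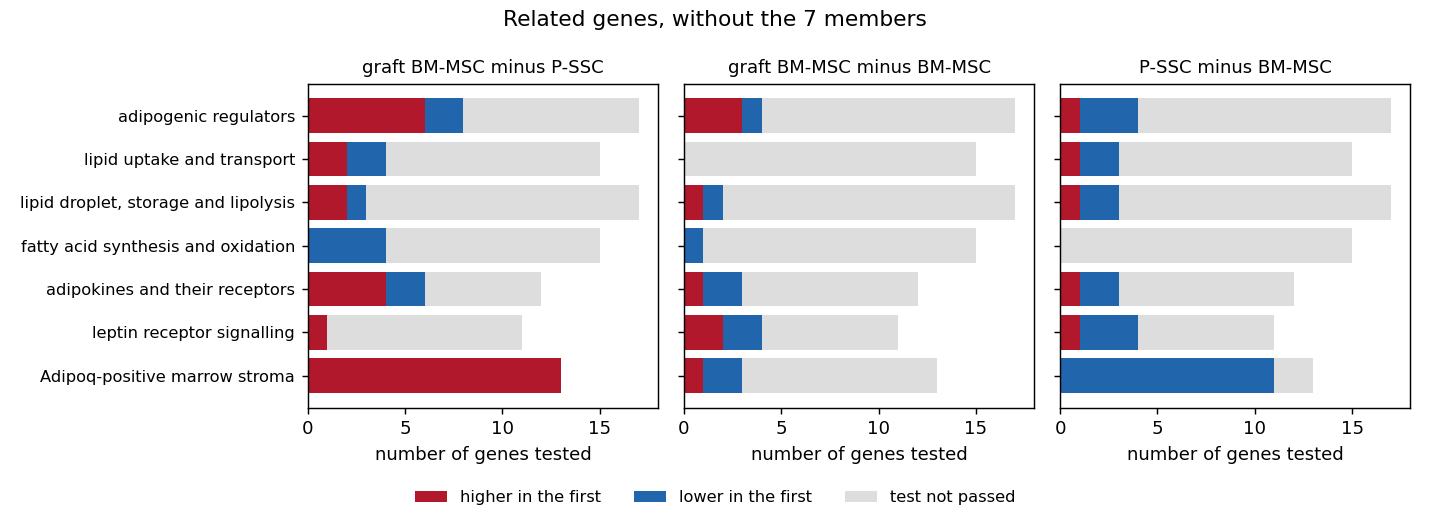
Number of genes tested per list of related genes, without the 7 members, that were higher (red), lower (blue) or did not pass the test (grey) in the 3 comparisons. The list of Adipoq-positive marrow stroma was higher in graft BM-MSC minus P-SSC in 13 of 13 genes, and the fatty acid list had 4 lower and 0 higher.

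Lists of related genes are read against all genes, of which 6.08% were called higher and 11.98% lower in graft BM-MSCs minus P-SSCs, 2.61% and 5.06% in graft BM-MSCs minus BM-MSCs, and 4.57% and 4.58% in P-SSCs minus BM-MSCs. The regulators of fat cell fate around Pparg rose in part. Of 17 other adipogenic regulators tested, 6 were higher in graft BM-MSCs than in P-SSCs and 2 were lower, with a median log2 difference of 0.15. Cebpa, the partner of PPAR gamma in fat cell fate, read 711, 253, 1200.4 and 1146 in graft BM-MSCs, 8.31, 1.27 and 66.9 in P-SSCs and 233, 109 and 137 in BM-MSCs (log2 difference 5.97 to P-SSCs, adjusted p 0.00409). Leaving out 1 library did not end that call, while with the GC class as a covariate the difference was 3.38 (adjusted p 0.158). Foxc1 and Ebf3, which hold marrow stroma in its niche state, were 7.81 and 5.70 higher than in P-SSCs (adjusted p 0.000196 and 0.000571) and both were lower in P-SSCs than in BM-MSCs (-3.96 and -4.25, adjusted p 0.0231 and 0.0073). The Foxc1 call between the steady-state groups was lost without any 1 of the 3 BM-MSC libraries, P-SSC 1 or P-SSC 2+5 (differences of -5.30 to -3.10 over all libraries left out, adjusted p up to 0.0934). Against BM-MSCs 3 of the 17 were higher in the graft and 1 lower, with a median of 0.91. Cebpb, which acts early in fat cell formation, read 4.18, 16.9 and 7.89 in BM-MSCs and 1416, 2232, 2549 and 2625 in the graft, a difference of 7.84 (adjusted p 0.00203).

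Some of these regulators read higher in P-SSC 4 than in the other P-SSC libraries. Cebpb read 282 there against 14.5 and 35.7 in the other P-SSC libraries, and Cebpd, which was 5.63 higher in the graft than in BM-MSCs (adjusted p 0.0238), read 8755 against 103 and 187. Foxc1 was 3.85 higher in the graft than in BM-MSCs (adjusted p 0.0269) and read 128 in P-SSC 4 against 9.35 and 5.10. All 3 thus read higher in P-SSC 4 than in the other P-SSC libraries, and all graft libraries share its high GC class. Foxc1 was nonetheless lower in P-SSCs than in BM-MSCs, which are of the low class (-3.96 with P-SSC 4 included). GC content was 67.2% in Cebpb, 55.9% in Foxc1 and 51.6% in Cebpd. The fit with that class as a covariate takes the class from P-SSC 4 against the other P-SSC libraries, so its values, -0.34 for Cebpd, -0.17 for Foxc1 and 4.27 for Cebpb (adjusted p 0.261), restate these readings and are no separate test. The calls of Cebpd and Foxc1 against BM-MSCs were also lost without any 1 BM-MSC library or graft BM-MSC 3, and that of Foxc1 without graft BM-MSC 1 or 4 (adjusted p up to 0.0935 and 0.0964). In P-SSCs against BM-MSCs 1 of the 17 regulators was higher and 3 were lower.

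Genes of lipid handling other than the members were called in both directions. Of 15 genes of lipid uptake and transport, 2 were higher in graft BM-MSCs than in P-SSCs and 2 were lower, and 1 was higher and 2 lower in P-SSCs than in BM-MSCs. Against BM-MSCs limma called 0 of the 15, with 3 at an unadjusted p under 0.05, edgeR 0 and DESeq2 1. Angptl4, a secreted brake on lipoprotein lipase, read 12637, 13984, 19169 and 21504 in the graft, 10208, 9428 and 9991 in BM-MSCs and 1291, 1597 and 3910.3 in P-SSCs. It was 3.03 higher in the graft than in P-SSCs (adjusted p 0.000227), and 2.30 lower in P-SSCs than in BM-MSCs (adjusted p 0.00244), as was Lpl, the enzyme it inhibits. Scarb1, a lipoprotein receptor, was 2.94 lower in P-SSCs than in BM-MSCs (adjusted p 0.00671), and Abca1, which exports cholesterol, was 2.44 lower in the graft than in P-SSCs (adjusted p 0.0161, and 0.0916 without P-SSC 1).

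Calls among lipid droplet genes were close in number to those over all genes. Of 17 tested, 2 were higher and 1 lower in the graft than in P-SSCs, 1 and 1 against BM-MSCs, and 1 and 2 in P-SSCs against BM-MSCs. G0s2 was 2.56 higher in the graft than in P-SSCs (adjusted p 0.000606) and 2.05 lower in P-SSCs than in BM-MSCs (adjusted p 0.00515). Agpat2, an enzyme of triglyceride synthesis, was 2.23 higher in the graft than in P-SSCs (adjusted p 0.0114) and 2.27 higher than in BM-MSCs (adjusted p 0.0242), and with the GC class as a covariate these were 1.21 (adjusted p 0.303) and 0.74 (adjusted p 0.872). Plin3, a widely used droplet coat, was 2.33 lower in the graft than in P-SSCs (adjusted p 0.00128) and 1.44 higher in P-SSCs than in BM-MSCs (adjusted p 0.0429). Bscl2, which shapes nascent droplets, was 1.30 lower in the graft than in BM-MSCs (adjusted p 0.0222). Without any 1 BM-MSC library the calls of Agpat2 and Bscl2 against BM-MSCs were lost (adjusted p up to 0.0998 and 0.106), as was that of Agpat2 without graft BM-MSC 1 and, against P-SSCs, without P-SSC 1 (0.0536). The call of Plin3 between the steady-state groups was lost without any 1 of 7 libraries, all but P-SSC 4 and graft BM-MSC 1 and 2 (differences of 1.29 to 1.67, adjusted p up to 0.151).

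Calls among genes that make or burn fatty acids were all lower in the graft, the direction of most calls over all genes. Of 15 genes, 0 were higher in the graft than in P-SSCs and 4 were lower (Fasn, Acly, Cpt1a and Hadha), with a median of -1.28. The count of 4 was 2 after median centring, 1 after the GC correction and 0 with the GC class as a covariate, where Acly was -4.22 (SE 1.52) and Fasn -4.31 (SE 2.31), with wider errors. Acly, which supplies acetyl-CoA for lipid synthesis, read 1104, 378, 48.3 and 1539 in the graft, 10398.5, 7486 and 7854 in P-SSCs and 2480.4, 2066 and 2185 in BM-MSCs. Fasn, fatty acid synthase, read 289.8, 2.53, 816 and 121 in the graft, 3541, 2692 and 1986 in P-SSCs and 837, 853 and 953 in BM-MSCs. Both were lower in the graft than in P-SSCs (Acly -4.33, adjusted p 0.00951, and Fasn -4.73, adjusted p 0.0455), and the call of Fasn was lost without any 1 of 8 libraries, all but graft BM-MSC 2 and 3 (differences of -5.74 to -3.12, adjusted p up to 0.151). The call of Cpt1a, which brings fatty acids into mitochondria (-1.28, adjusted p 0.05), was lost without any 1 library other than graft BM-MSC 3 (adjusted p up to 0.156). Against BM-MSCs 0 of 15 were higher and 1 was lower, Ppard, a nuclear receptor that drives fatty acid oxidation, a call lost without any 1 of 6 libraries (the 3 BM-MSC libraries and graft BM-MSC 1, 2 and 3, differences of -4.90 to -3.59 over all libraries left out, adjusted p up to 0.113). In P-SSCs against BM-MSCs limma called 0 of 15, with 0 at an unadjusted p under 0.05, and edgeR and DESeq2 called 0.

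Hormones of fat cells and their receptors shared part of the pattern of Adipoq. Of 12 tested other than the members, 4 were higher and 2 lower in the graft than in P-SSCs, 1 and 2 against BM-MSCs, and 1 and 2 in P-SSCs against BM-MSCs. Serpina12, the adipokine vaspin, read 7316, 5762, 5015 and 7661 in the graft, 4366, 4412 and 3829 in BM-MSCs and 1.04, 0 and 0 in P-SSCs (adjusted p 5.76e-08 for graft minus P-SSCs). Agt, angiotensinogen, read 67.9 to 90.4 in P-SSCs, 21092 to 45029 in the graft and 69080.1 to 103245 in BM-MSCs, and it was also lower in the graft than in BM-MSCs (log2 difference -1.49, adjusted p 0.0131, and 0.072 without BM-MSC 2+4). Cdh13, a receptor that binds adiponectin, had the opposite pattern to its ligand. It read 3712, 2915 and 2782 in P-SSCs and 303, 114 and 116 in BM-MSCs, was listed at 0 in all 4 graft libraries, and passed the test in each comparison. Rbp4, the retinol carrier, was 3.57 higher in the graft than in BM-MSCs (adjusted p 0.0242), a call lost without BM-MSC 2+4, BM-MSC 3, graft BM-MSC 1 or graft BM-MSC 4 (adjusted p up to 0.0997).

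Leptin receptor signalling was tested in 11 genes other than Lepr. In the graft against P-SSCs 1 was higher and 0 lower, against BM-MSCs 2 were higher and 2 lower, and in P-SSCs against BM-MSCs 1 was higher and 3 were lower. Ptpn1, a phosphatase that shuts the receptor off, was 1.69 higher in the graft than in P-SSCs (adjusted p 0.0143) and 2.11 lower in P-SSCs than in BM-MSCs (adjusted p 0.00907), the same directions as Lepr. Socs3, the feedback inhibitor, read 3023, 3521 and 4151 in BM-MSCs, 5084, 8262 and 24678 in P-SSCs, with P-SSC 4 the highest, and 7597 to 22944 in the graft. It was 2.12 higher in the graft than in BM-MSCs (adjusted p 0.0342), as was Irs2, an adapter of insulin and leptin signals (3.12, adjusted p 0.00614). With the GC class as a covariate Socs3 was 0.19 (adjusted p 0.951) and Irs2 3.65 (adjusted p 0.199), so the call of Irs2 was lost without a smaller difference. Irs2 was also the gene higher in P-SSCs than in BM-MSCs (2.29, adjusted p 0.023), a call lost without BM-MSC 1, BM-MSC 3, P-SSC 1 or P-SSC 2+5 (adjusted p up to 0.0947). The Socs3 call was also lost without any 1 BM-MSC library or graft BM-MSC 2, 3 or 4 (adjusted p up to 0.121), and those of Ptpn1 without P-SSC 1 (0.0699) and without BM-MSC 3 (0.0527).

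The list of Adipoq-positive marrow stroma was chosen with results of these libraries known, so its count is not independent evidence of its direction. Its 13 genes other than the members were all higher in the graft than in P-SSCs, by a median of 7.0 on the log2 scale, 11 of 13 were lower in P-SSCs than in BM-MSCs, and 1 was higher and 2 were lower in the graft than in BM-MSCs. Kng1, kininogen, read 15137, 17143, 19255 and 13930.2 in the graft, 19103, 16915 and 14232 in BM-MSCs and 0, 2.55 and 0 in P-SSCs. Esm1, endocan, and Hp, haptoglobin, were 12.23 and 10.93 higher in the graft than in P-SSCs (adjusted p 3.81e-07 and 2.24e-05). Agt, Foxc1 and Ebf3 are on this list as well as on another.

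Genes with the most similar pattern to each member were found among 9545 genes with a mean of at least 100 normalized counts, as the root mean square difference of centred log2 values over the 10 libraries. The 3 nearest to Adipoq were Kng1 (0.47), Serpina3g (0.67) and Esm1 (0.93). Lepr was nearest to Prdm11 (0.61), Kitl (0.61) and Trarg1 (0.63), and Lpl to Pde1a (0.35), Emb (0.37) and Fbln5 (0.40). Pparg was nearest to Mme (0.51), Snai2 (0.55) and 1500009L16Rik (0.61), and Apoe to Sdc1 (0.24), Vegfc (0.46) and Sema6d (0.56). Fabp4 was nearest to Mdga1 (0.51), the regulator Zfp467 (0.56) and Rnf125 (0.72). No gene came close to Cd36, whose nearest were Arfgef1 (1.23), Pcdhb16 (1.25) and Insig1 (1.36). No member was among the 3 nearest of another member, and the points share their libraries, depth and GC class.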

How the data were processed

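The deposited table, made by the authors, gives a signal for every gene in each library, namely reads scaled by the library's DESeq2 size factor (1.26.0 per the submitters' processing notes, which also name STAR 2.5, featureCounts, cutadapt 1.15, FastQC 0.11.5 and the build GRCm39, whereas the methods name another STAR version and GRCm38). Whether strand was used in counting is not given in the sources used here. Values were whole multiples of that of 1 read in 100% of cases (tolerance 0.01), and dividing by it gave the recovered reads, summed per library as its depth. No gene had fewer than 22 reads over all libraries. Intervals and floors cover counting error only. Each replicate held RNA of distinct mice.

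Values were analysed as log2(value + 1), so differences of low genes are understated. The filter was a mean of 10 or more (13644 of 15078, 1434 removed). Groups came from the sample labels. limma 3.58.1 fitted the 3 group means over the 10 libraries together (R 4.3.3, empirical Bayes with a trend), two-sided, with Benjamini-Hochberg adjustment over all genes tested and a threshold of 0.05. All 3 tools were tested on simulated data, where limma and edgeR rarely called a gene that had not been changed and DESeq2 did so more often. The simulated libraries had no GC class and no zeros particular to a library. They therefore do not show how the tools err on the libraries studied here. Alternatives were pseudocounts of 0.1 and 5, no filter or a mean of 100, median centring, quantile normalization, only the 2 groups compared, each library left out, a replicate block, the GC class as a covariate, a GC correction (loess, span 0.3), an adjusted p under 0.01, a log2 difference of 1, edgeR 4.0.16 with quasi-likelihood and DESeq2 1.42.0 on the recovered reads (1531 and 2908 genes called in graft BM-MSCs minus P-SSCs) and, chosen after seeing the data, only the low GC class. The GC class was set by the median of genes over 65% GC against those of 50% to 60%. GENCODE M21 (GRCm38), joined by Ensembl ID, gave coordinates, lengths and GC content (15052 of 15078 matched), and RefSeq gave promoters.

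Members and lists were chosen with earlier results of these data known. Named were the members, for each list the 3 genes with the largest called difference between graft BM-MSCs and P-SSCs and the 2 largest in each other comparison, the 3 nearest patterns per member, the cell type markers, Leprot and Fabp5. Genes that share reads with a near copy are uncertain.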

Additional observations from a re-analysis of the deposited data

Results flagged for a closer look

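In a group of 4 to 10 libraries, a value was singled out by its gap to the nearest other library. That gap had to be a large share of the range of the group (Dixon's test, 95% critical value). The test used normalized counts and was not run on the log2 scale of the other results. Chance gives such a gap in about 1 of 20 groups where values are normally distributed, which skewed counts need not be. Of 35 groups tested in the graft BM-MSCs, 3 were singled out. For Fabp4 the gap of graft BM-MSC 4 (4246) to the next library (1365) was 0.859 of the range. For G0s2, the inhibitor of fat breakdown, the gap of graft BM-MSC 4 (6628) to the next library (3047) was 0.938 of the range. For Ppard, a relative of Pparg that drives fatty acid burning, 1 read in graft BM-MSC 4 stood against 0 in the other 3, a gap of 1 of the range, which is within counting error. The log2 difference of Fabp4 without graft BM-MSC 4 was 3.06 to P-SSCs and 1.201 to BM-MSCs.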

How the results depend on the processing

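Of 469 values of the members under other settings, 450 kept their direction and side of the threshold, 8 changed direction, 6 lost and 5 gained a call, and of 980 values of related genes 813 kept both. In graft BM-MSCs minus P-SSCs the members called stayed at 6 except under the replicate block (4) and the GC class covariate (5). In graft BM-MSCs minus BM-MSCs, where 0 were called, the count was 0 to 1 when 1 library was left out, 1 after the GC correction and 2 with DESeq2. There Adipoq turned to 0.047 under quantile normalization, 0.024 with the GC class covariate and 0.49 after the GC correction, Lepr to 0.22 under quantile normalization, 0.049 without BM-MSC 1 (-0.39 to 0.049 when any 1 library was left out, and -0.30 without graft BM-MSC 3) and 0.37 after the GC correction, and with the covariate Apoe turned to -2.09, Cebpd to -0.34 and Foxc1 to -0.17. In P-SSCs minus BM-MSCs 5 members were called, 6 with DESeq2 and 2 under the block, with Cd36 at -0.85.

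Over all genes, 2464 were called in graft BM-MSCs minus P-SSCs (33.7% of them higher), and 269 under the block, 1081 with the covariate, 1531 with edgeR, 1332 at an adjusted p under 0.01, and 1583 to 3005 when 1 library was left out. The share higher was 50.1% under quantile normalization, 61.9% after the GC correction and 47.6% without P-SSC 4. In graft BM-MSCs minus BM-MSCs 1046 were called (34.0% higher), and 3 under the block, 40 with the covariate, 316 with edgeR, 1947 with DESeq2, 305 at an adjusted p under 0.01, and 476 to 1584 when 1 library was left out (477 without BM-MSC 3). There the share higher was 57.5% under quantile normalization, 71.3% after the GC correction and 48.0% without P-SSC 4. In P-SSCs minus BM-MSCs 1248 were called, and 54 under the block, 2040 in the low GC class alone, 619 with edgeR and 794 at an adjusted p under 0.01. The effect of the covariate rests on P-SSC 4 against the other P-SSC libraries. The cause of these moves was not tested, apart from fewer libraries or a stricter threshold where the setting sets it.

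Quantile normalization moved the median of all genes from -0.47 to -0.02 and from -0.53 to -0.17 in the graft comparisons, and the GC correction moved it to 0.30 and 0.25. Libraries of the same number deviated with correlations of -0.019 to 0.030, which gave no sign of a pairing by number. They cannot exclude one, since each deviation also holds the other differences between libraries. The block is given here only. Reads were few for Adipoq in P-SSCs (11 reads) and for Cd36 in graft BM-MSC 2 (1 read). That library held 17467904 reads in all, against 15415421 in graft BM-MSC 3, where Cd36 had 163 reads. The cause was not tested.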
